A study of Mus musculus with 4 samples.

Results

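RNA levels of Geminin and of 44 other genes of DNA replication were examined in neural precursors in which Geminin had been knocked down. The 45 genes were chosen by symbol for their textbook role, with earlier results of these data known, and all 45 of 45 symbols were found among the 21690 features of each deposited table. By role they are Geminin itself (1 gene), origin licensing (8), relatives of the licensing helicase (2), origin firing (8), fork elongation (19), the replication checkpoint (3) and ubiquitin ligase subunits that act on licensing factors (4).

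RNA was sequenced from 4 libraries of precursors made from the A2lox mouse embryonic stem cell line, an engineered line whose clonal derivatives carry inducible constructs. All 4 come from GemKD cells, which hold the doxycycline-dependent knockdown, and were grown in N2B27, a serum-free neural differentiation medium, for 5 days. The 3 knockdown libraries (called 1, 2 and 3) are independent experiments that received 500 ng doxycycline (the volume is not given in the sources used here) from day 3, and the control is 1 library that received none. The control has no replicate, and no library with doxycycline but without the construct was used here, so the effects of the drug and of the knockdown cannot be told apart. The 3 tables share that control, so agreement between them in direction is not independent. The control carries the replicate number 1, as does knockdown library 1. Whether the shared number means a shared experiment is not given in the sources used here. For libraries 2 and 3, which have no control of their own number, differences between experiments and the knockdown cannot be told apart. In bulk RNA, fewer expressing cells and less RNA per cell cannot be told apart.

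Chromosomal DNA is copied once per cell cycle because licensing and firing of origins are separated in time. In G1 the origin recognition complex, Cdc6 and Cdt1 load the Mcm2-7 helicase onto origins, and in S phase the kinases Dbf4-Cdc7 and Cdk2 fire them by recruiting the GINS complex and other factors. Geminin binds Cdt1 and blocks further loading from S phase to mitosis, and Cdt1 is also destroyed in S phase by the Skp2 and Cul4-Ddb1 ubiquitin ligases. Geminin is additionally known in embryos and embryonic stem cells as a regulator of neural fate. Many replication genes are transcribed under E2F factors as cells enter S phase.

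Upstream sequences are shown first because E2F-type letters are the feature that many of these genes are known to share, and because the genes' RNA levels are compared as a set below. Of the 45 genes 36 matched the RefSeq promoter table (GRCm38.p6, while the expression tables use mm9). The letters searched were TTTCGCGC, TTTGGCGC, TTTCCCGC and TTTGCCGC on both strands in the 250 bases before the most upstream start. They were present in 8 of 36 genes (22.2%), against 1.92% of 27025 such windows in all. The short sequence CCAAT, also searched on both strands and able to overlap those letters by an end base at most, was found in 58.3% of the 36 and in 34.5% of all windows. The 8 genes with E2F-type letters were Cdc6, Mcm5, Mcm6, Mcm7, Gins3, Cdk2, Pola1 and Rfc3. Below are the 3 of them whose windows hold no annotated exon, each 5′ to 3′ on the gene's own strand and ending at the base before the start, with the matched letters in capitals. In Mcm5 and in Mcm6, matches on opposite strands overlap and give a single capital run of 12 bases.
Mcm5, licensing helicase subunit, chr8:75109259-75109508, plus strand: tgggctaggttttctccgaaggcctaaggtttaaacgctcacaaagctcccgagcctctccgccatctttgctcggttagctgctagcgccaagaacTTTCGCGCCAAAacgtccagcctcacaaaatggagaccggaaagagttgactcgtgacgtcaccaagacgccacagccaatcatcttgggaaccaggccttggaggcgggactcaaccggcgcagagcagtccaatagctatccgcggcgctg
Mcm6, licensing helicase subunit, chr1:128359706-128359955, minus strand: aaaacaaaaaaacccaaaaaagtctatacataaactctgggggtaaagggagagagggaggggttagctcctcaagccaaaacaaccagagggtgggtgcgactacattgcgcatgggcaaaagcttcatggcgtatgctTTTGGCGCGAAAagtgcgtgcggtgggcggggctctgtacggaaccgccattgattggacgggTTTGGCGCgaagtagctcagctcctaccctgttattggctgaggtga
Pola1, catalytic subunit of DNA polymerase alpha, chrX:93632156-93632405, minus strand: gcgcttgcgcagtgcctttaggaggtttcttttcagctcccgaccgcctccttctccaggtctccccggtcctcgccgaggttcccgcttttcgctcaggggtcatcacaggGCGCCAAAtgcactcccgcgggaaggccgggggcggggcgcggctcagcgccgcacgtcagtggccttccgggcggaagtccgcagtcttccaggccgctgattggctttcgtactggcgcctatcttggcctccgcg
A match describes letters only and shows no binding. All 3 of these genes stayed between 80.8% and 108% of the control in every knockdown library.

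Gmnn, which encodes Geminin and is listed on chromosome 13 from 24843713 to 24853806 (mm9), was lower than the control in all 3 libraries. Its level was 27.0, 65.9 and 27.9 FPKM (fragment counts corrected for transcript length and sequencing depth) in libraries 1 to 3, against 113 FPKM in the control. Libraries 1 and 3 kept 24.0% and 24.7% of the control level, whereas library 2 kept 58.4%, and the mean was 35.7% ± 19.7 (SD, n = 3). Among the 45 genes Gmnn ranked 10th by FPKM in the control and 36th, 17th and 34th in libraries 1 to 3. By level, then, Gmnn moved from among the helicase subunits to among genes such as Prim2 and Cdc7 in libraries 1 and 3. A significant fall was recorded for libraries 1 and 3 by the authors' deposited tables, and in library 2 the authors' deposited table gave a q-value of 0.0722.

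By the study's own rule, a mark in at least 2 of the 3 deposited Cuffdiff tables in 1 direction, Gmnn and Gins2 fell and 0 of the 45 genes rose. Over all 14477 features that could be called by this rule, 0.905% fell, 1.98% rose and 2.88% did either. The 2 genes that fell are therefore to be read against 45 genes at a background of 0.905%, and 1 of the 2 is the knockdown target. In single tables, the authors' deposited marks covered 3, 2 and 2 of the 45 genes as lower in libraries 1 to 3, against 1.52%, 2.02% and 1.28% of features with a usable test. As higher they covered 0 of the 45 in each Cuffdiff table, against 0.909%, 3.23% and 3.33%. Counted together, 5 of the 45 genes (Gmnn, Gins2, Pold2, Skp2 and Cul4b) had a mark in at least 1 of the authors' deposited tables, against 8.9% of features. Separately, limma was fitted to log2(FPKM + 1) over 11968 features with a usable test in every table and a mean of at least 1 FPKM. All 45 genes entered that fit, and 0 passed an adjusted p of 0.05, against 0.125% of all features fitted. At an unadjusted p under 0.05, limma gave 1 of the 45 genes, Gmnn itself, against 1.27% of all features. For Gmnn limma put the log2 change at -1.59 (standard error 0.56, 95% interval -3.07 to -0.11, adjusted p = 0.999). The fit has 2 residual degrees of freedom and takes the single control to spread as widely as the knockdown libraries. The smallest one-sided p that exact permutation allows for 3 libraries and 1 is 0.25, or 0.5 when doubled for a two-sided test.

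Apart from Gmnn, Gins2 and Cul4b, which stood at 59.3% of the control in library 2, the genes lay between 74.8% (Gins1, library 3) and 120% (Cdk2, library 3) of the control in every library. Of the 45 genes, 36 (80.0%) were within 20% of the control in every library, against 41.2% of all features fitted and 55.4% of the 7337 features with at least 10 FPKM in the control, a level that 44 of the 45 genes reached. Within 10% of the control were 13 of the 45, or 28.9%, against 17.2% of those features. The standard deviation of the log2 ratio over the 3 libraries had a median of 0.086 for the 45 genes and 0.138 for the features with at least 10 FPKM. It was 0.166 for all features fitted, which include lower levels. The 45 genes had a median control level of 55.7 FPKM, against 28.6 for the features with at least 10 FPKM. These shares and spreads are therefore not matched for level. Median log2 ratios of the 45 genes were -0.09, -0.06 and -0.06 in libraries 1 to 3, and those of all features fitted were -0.02, 0.03 and 0.01. For the features with at least 10 FPKM they were -0.02, 0.002 and -0.02. More genes lay below than above the control: 23 of 45 were lower in all 3 libraries, 7 were higher in all 3, and 15 lay on both sides. Of the features with at least 10 FPKM, 25.4% were lower in all 3 libraries and 19.5% higher. For the 43 genes other than Gmnn and Gins2, the 95% intervals of the limma change included 0 in all 43 and stayed within 1 log2 unit on either side in 42. The exception was Cul4b, whose interval reached -1.17.

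**Figure D1:**
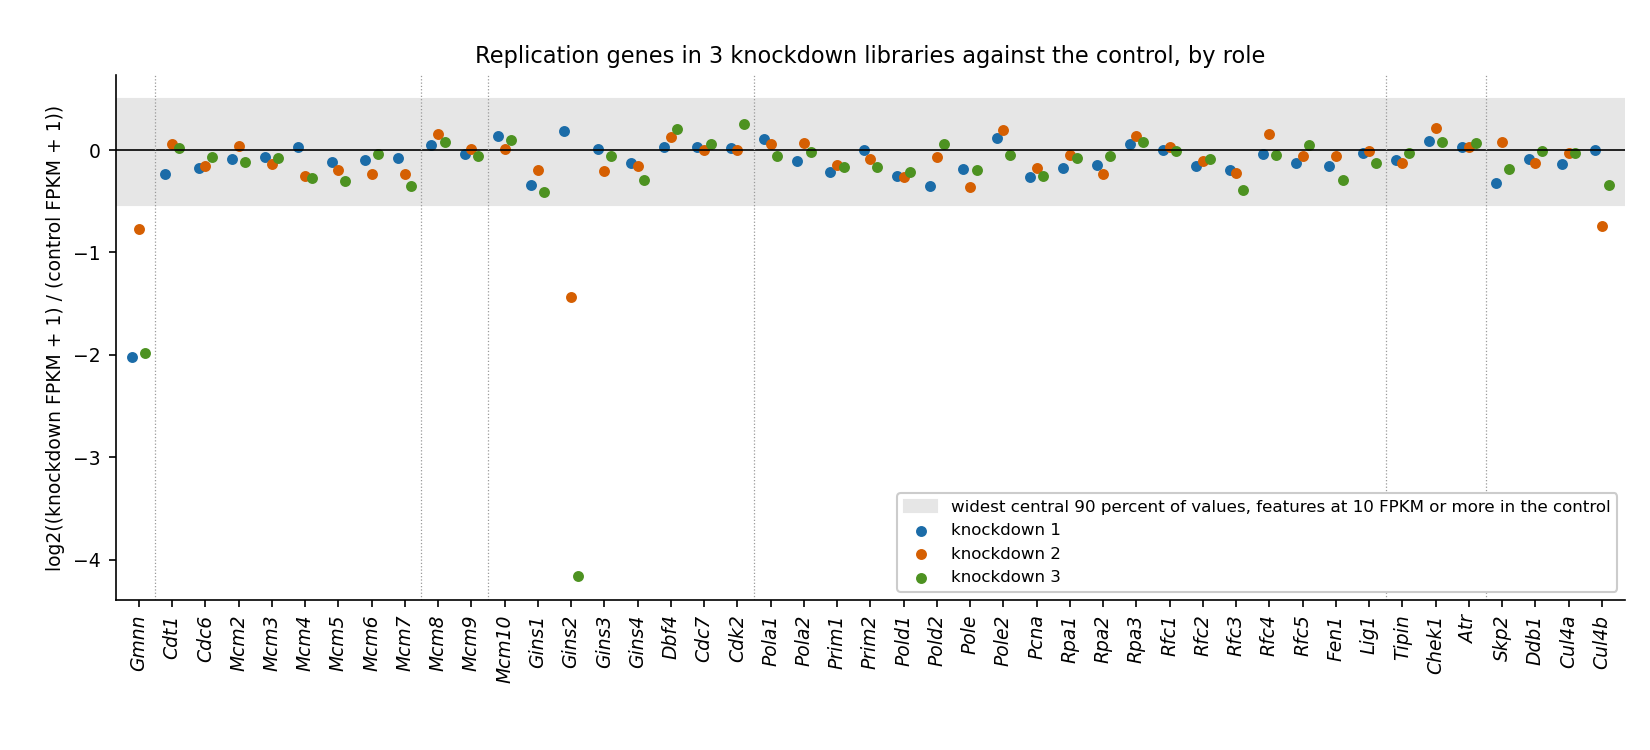
Log2 ratio of each knockdown library to the control, on the log2(FPKM + 1) scale, for the 45 genes in order of role, with dotted lines between roles (from left: Geminin, licensing, Mcm relatives, firing, elongation, checkpoint, ubiquitin ligase). Each point is 1 library, and the grey band spans the widest central 90%, over the 3 libraries, of features with at least 10 FPKM in the control; the points outside it belong to Gmnn, Gins2 and Cul4b.

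Among the licensing factors, Cdt1, the helicase loader that Geminin binds, stayed nearer to the control than Gmnn did. Its level was 39.0, 48.0 and 46.6 FPKM in libraries 1 to 3 against 46.1 in the control, or 96.6% ± 10.6 of the control (SD, n = 3). It was lowest in library 1, and libraries 2 and 3 lay just above the control. The order of the 3 knockdown libraries by level was the same as for Gmnn, whose levels in libraries 1 and 3 were nearly equal. Because Gmnn was lower and Cdt1 was near the control, the ratio of Cdt1 to Gmnn FPKM was 1.44, 0.728 and 1.67 in libraries 1 to 3, against 0.408 in the control. These ratios are 3.53, 1.78 and 4.09 times the control ratio. It compares RNA levels per length, not proteins. Cdc6, the ATPase that works with Cdt1 in loading, had 17.5, 17.8 and 18.9 FPKM against 19.9. All 3 knockdown values of Cdc6 lay below the control, at 90.8% ± 3.81 (SD, n = 3), and the limma interval of its log2 change ran from -0.51 to 0.24.

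**Figure D2:**
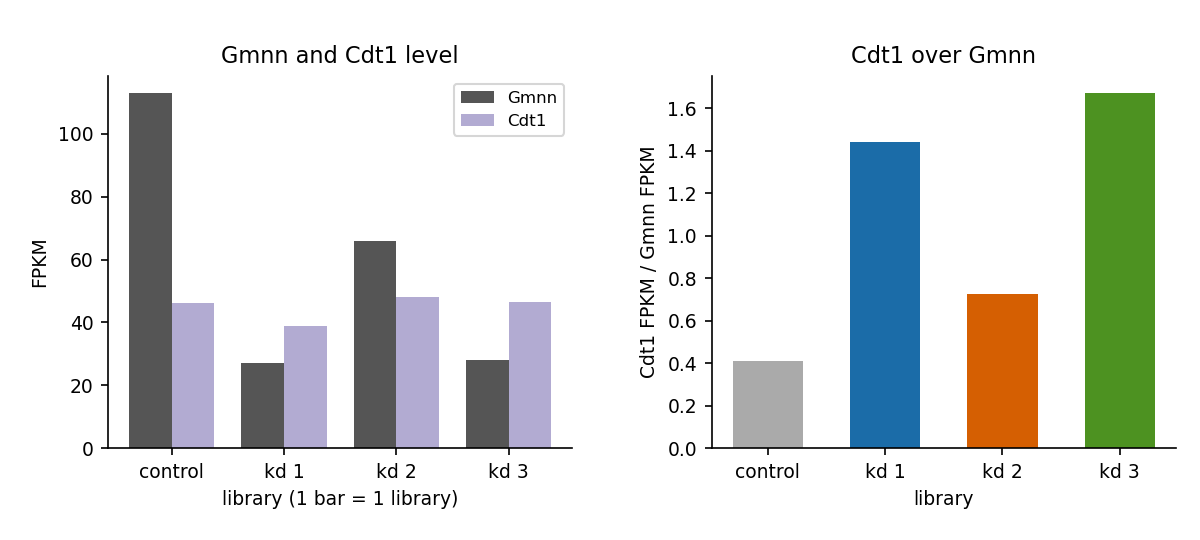
Left, FPKM of Gmnn and Cdt1 in the control and in knockdown (kd) libraries 1 to 3; right, the ratio of the 2 FPKM values in the same libraries, 1 bar per library and axes starting at 0. Gmnn was 113 FPKM in the control and 27.0, 65.9 and 27.9 in the knockdown libraries, while Cdt1 stayed between 39.0 and 48.0, so the ratio was above the control's 0.408 in each of them.

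The 6 subunits of the Mcm2-7 helicase were among the most abundant of the genes, with 109 (Mcm4) to 239 FPKM (Mcm7) in the control. Mcm7 had 227, 203 and 187 FPKM in libraries 1 to 3 against 239, and Mcm5 had 104, 99.1 and 91.9 against 114. Both were lower in every library, at 85.9% ± 8.35 and 86.6% ± 5.58 of the control (SD, n = 3). Mcm3 had 149, 143 and 149 FPKM against 157. Mcm6 had 158, 143 and 165 against 169. These subunits too lay below the control in each library, within 16% of it. Mcm2 had 127, 138 and 124 FPKM against 135, and Mcm4 had 111, 91.2 and 90.1 against 109. Mcm2 was above the control in library 2 only and Mcm4 in library 1 only.

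Summed over the 6 subunits, FPKM was 876, 817 and 807 in libraries 1 to 3, or 95.0%, 88.6% and 87.5% of the 923 in the control. The most abundant subunit exceeded the least abundant by 2.17-fold, 2.22-fold and 2.08-fold, against 2.19-fold in the control. Mcm7 was the highest subunit in every library. None of the 6 was called, and their limma intervals ran from -0.63 (Mcm7) to 0.28 (Mcm2 and Mcm4) log2 units. These intervals do not show that the levels are equal. Mcm8 and Mcm9, which form a separate helicase of homologous recombination, were far less abundant. Mcm8 had 13.5, 14.7 and 13.8 FPKM against 13.01, and Mcm9 had 6.89, 7.16 and 6.76 against 7.08. Mcm9 is listed at the same locus as Asf1a, and Mcm7 is listed with the microRNA features Mir25, Mir93 and Mir106b inside it. Mir93 had 0 FPKM in libraries 1 to 3, against control values of 476, 249 and 212 in the 3 comparisons. It carried no Cuffdiff mark, and its limma adjusted p was 0.0419. Mir25 had 0, 253 and 0 FPKM against 0, and Mir106b was at 0 throughout. How reads at this locus were assigned was not tested.

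Among the firing factors, Gins2, a subunit of the GINS complex that joins Mcm2-7 in the active helicase, had the lowest single value relative to the control. Its level was 63.9, 20.0 and 2.15 FPKM in libraries 1 to 3 against 55.7 in the control. It was above the control in library 1, at 114%, and at 35.8% and 3.89% in libraries 2 and 3. Libraries 2 and 3 carried the mark in the authors' deposited tables, with q-values of 0.00281 and 1.95e-12. The limma change was -1.80 log2 units (standard error 1.69, adjusted p = 0.999), and its 95% interval ran from -6.29 to 2.69. Leaving out library 1 gave a limma change of -2.80, leaving out library 2 gave -1.98, and leaving out library 3 gave -0.62. Without library 1 Gins2 was the only one of the 45 genes called by the study's rule, and without library 2 or library 3 it was not called.

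Gins2 (chromosome 8, 123012765 to 123112975 in mm9) is listed at the same locus as Gse1, and Gse1 moved the opposite way in each library. Gse1, which encodes a coiled-coil protein of chromatin complexes, had 6.29, 14.3 and 17.5 FPKM in libraries 1 to 3 against 9.18 in the control. The authors' deposited tables marked Gse1 as lower in library 1 (q-value 0.000782) and as higher in library 3 (q-value 0.000369). It was not called by the study's rule. Relative to the control, Gins2 differed by 8.04, -36.0 and -53.2 FPKM and Gse1 by -2.88, 5.19 and 8.31 FPKM. The library with the highest Gins2 had the lowest Gse1, and the order of the 4 libraries was exactly inverse for the 2 genes. In the GRCm38 GENCODE annotation the 2 genes lie on opposite strands and overlap at their 3′ ends. The strand setting of the counting is not given in the sources used here, so it is not known how reads from the overlap were assigned. The share of such reads in the levels of Gins2 and Gse1 was not tested, and the level of Gins2 is uncertain.

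**Figure D3:**
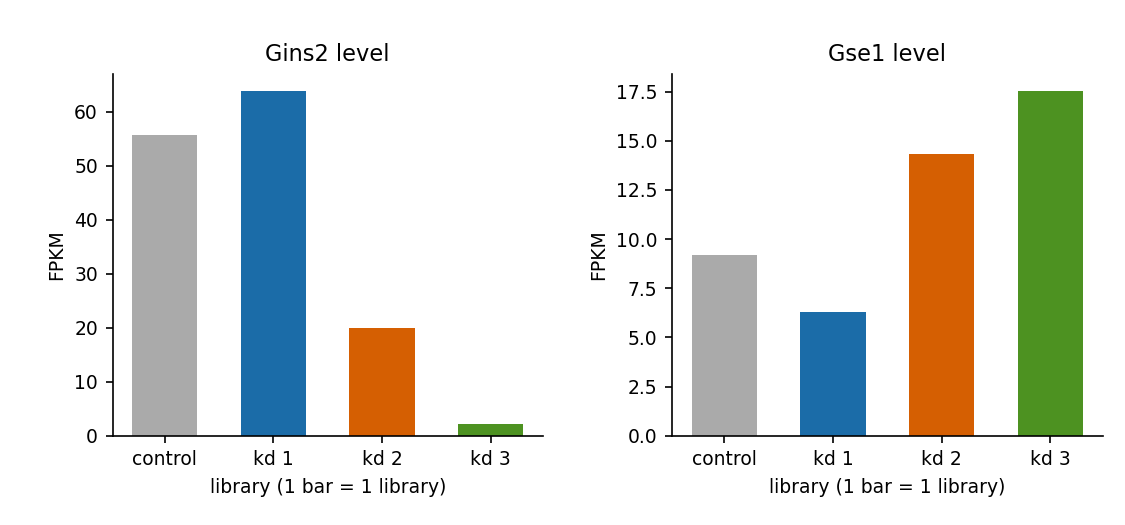
FPKM of Gins2 (left) and of Gse1, listed at the same locus (right), in the control and in knockdown (kd) libraries 1 to 3, 1 bar per library and axes starting at 0. Gins2 was 63.9 in library 1 and 2.15 in library 3, and Gse1 had the inverse order, with 6.29 and 17.5.

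The other GINS subunits did not share the low values of Gins2. Gins1 had 34.0, 37.7 and 32.3 FPKM in libraries 1 to 3 against 43.3, or 80.1% ± 6.32 of the control (SD, n = 3). Gins4 had 47.2, 46.4 and 42.1 FPKM against 51.7, and Gins3 had 11.3, 9.53 and 10.7 against 11.2. Gins1 and Gins4 were lower in every library and Gins3 lay on both sides of the control. The lowest limma bound was -0.70 log2 units for Gins1. Summed FPKM of Gins1, Gins3 and Gins4 was 87.1%, 88.2% and 80.2% of the control, while with Gins2 included the sum was 96.6%, 70.2% and 53.9%.

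**Figure D4:**
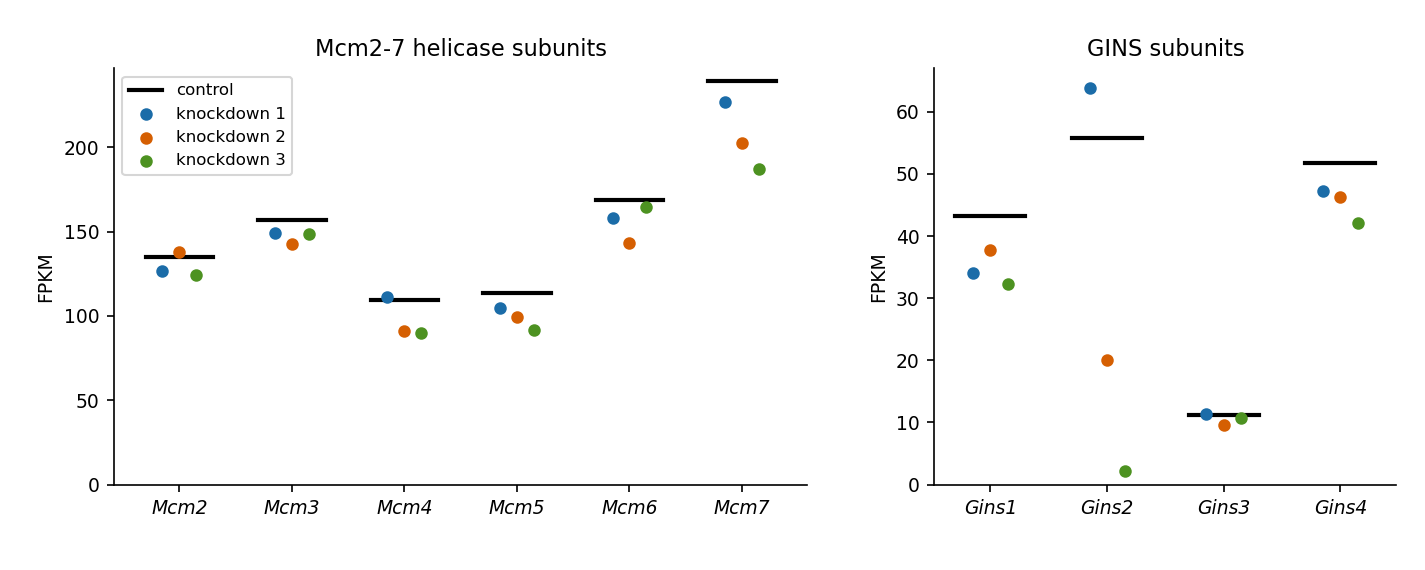
FPKM of the Mcm2-7 subunits (left) and of the GINS subunits (right), with the control as a black line and each knockdown library as a point. Points sit close to the line or below it for 9 of the 10 subunits, and among these subunits Gins2 spreads most widely, from 2.15 to 63.9 FPKM.

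The kinases that fire origins were close to the control or slightly above it. Dbf4, the activating subunit of the Cdc7 kinase, had 70.7, 75.7 and 79.9 FPKM in libraries 1 to 3 against 69.3, and Cdc7 had 25.7, 25.3 and 26.3 against 25.2. Both lay above the control in all 3 libraries, Dbf4 at 109% ± 6.61 and Cdc7 at 102% ± 1.90 (SD, n = 3). Cdk2, the S-phase kinase, had 35.2, 34.6 and 41.5 FPKM against 34.7. Mcm10, which stabilises the helicase as it is activated, had 36.7, 33.5 and 35.8 against 33.3. No call was made for these 4 genes, and the limma interval of Dbf4 ran from -0.22 to 0.46.

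Of the 19 elongation genes, 11 were lower than the control in all 3 libraries and 1, Rpa3, was higher, and 0 were called by the study's rule. Of the features with at least 10 FPKM in the control, 25.4% were lower in all 3 libraries and 19.5% higher. The 3 libraries share 1 control, so their agreement in direction is not independent. Pcna, the sliding clamp that holds polymerases on DNA, was the most abundant of all 45 genes. It had 383, 407 and 385 FPKM in libraries 1 to 3 against 461, or 85.0% ± 2.85 of the control (SD, n = 3). The 3 knockdown values lay close together and below the control, and the limma change was -0.23 with an interval from -0.58 to 0.11. Rfc3, a subunit of the RFC clamp loader, had the lowest mean ratio of the role, with 88.0, 85.9 and 76.7 FPKM against 101. The other RFC subunits averaged between 92.1% (Rfc2) and 102% (Rfc4) of the control, and Rfc4 is listed at the same locus as Eif4a2 and 2 small nucleolar RNAs. Eif4a2 had 107, 143 and 149 FPKM in libraries 1 to 3 against 97.9 and rose by the study's rule. Neither small nucleolar RNA was called. How reads at this locus were assigned was not tested.

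Subunits of the same polymerase did not all lie on the same side of the control. For polymerase delta, the catalytic subunit Pold1 had 37.3, 37.0 and 38.4 FPKM against 44.6 and was lower in all 3 libraries. Its partner Pold2 had 54.6, 66.8 and 73.0 FPKM against 69.8, with the authors' deposited table marking library 1 alone (q-value 0.0444). Pold2 is listed at the same locus as Aebp1, which had 2.06, 1.28 and 2.53 FPKM against 1.59. For polymerase epsilon, the leading-strand polymerase, the catalytic subunit Pole had 19.5, 17.1 and 19.3 FPKM against 22.3. Pole was lower in every library, whereas its partner Pole2 had 24.7, 26.0 and 21.8 against 22.6. Within the polymerase alpha-primase complex, which makes primers, Prim1 was lower in all libraries, at 88.4% ± 2.35 of the control (SD, n = 3). Pola1 was at 103% ± 6.05, Pola2 at 99.0% ± 6.08 and Prim2 at 94.3% ± 5.57 (SD, n = 3). Fen1, the flap nuclease, and Lig1, the ligase that joins Okazaki fragments, averaged 89.0% and 96.4% of the control.

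The single-strand binding complex RPA and the clamp loader RFC kept their summed level near the control. Summed FPKM of Rpa1, Rpa2 and Rpa3 was 93.3%, 96.8% and 97.7% of the control in libraries 1 to 3, and that of the 5 RFC subunits was 92.3%, 95.7% and 91.3%. Rpa3 had 58.1, 61.4 and 58.9 FPKM against 55.8 and stood above the control in each library. Rpa1, the largest subunit, had 89.2, 96.6 and 94.4 FPKM against 100.1, and Rpa2 had 51.8, 48.6 and 55.1 against 57.4.

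Checkpoint genes lay within 18% of the control. Chek1, the effector kinase that restrains firing when forks stall, had 25.5, 28.0 and 25.3 FPKM in libraries 1 to 3 against 23.9. Atr, the kinase that activates it, had 15.4, 15.3 and 15.9 against 15.0. Both were above the control in every library, Chek1 at 110% ± 6.24 and Atr at 103% ± 1.92 (SD, n = 3), and neither was marked in a table. Tipin, a fork protection factor, had 139, 136 and 145 FPKM against 148. Atr is listed at the same locus as 1700065D16Rik, which had 0.230 FPKM in the control.

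Of the ubiquitin ligase subunits, Cul4b, a scaffold of the ligase that targets Cdt1, varied most. It had 89.6, 53.2 and 70.8 FPKM in libraries 1 to 3 against 89.8. Library 1 stood at 99.8% of the control, library 2 stood at 59.3% and library 3 at 78.8%, and the authors' deposited table marked library 2 alone (q-value 0.00521). Its paralog Cul4a had 35.1, 37.8 and 38.0 FPKM against 38.6. Skp2, the substrate receptor of the other ligase, had 33.0, 43.8 and 36.4 against 41.5, and the authors' deposited table marked library 1 alone (q-value 0.0423). Ddb1, the adaptor of the Cul4 ligases, had 304, 295 and 322 FPKM against 323. Cul4a and Ddb1 were thus slightly below the control throughout.

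The marks in single tables need the precision of each table beside them. At 10 to 100 FPKM in the control, the standard error that the Cuffdiff p-values imply had a median of 0.118, 0.268 and 0.249 log2 units in libraries 1 to 3. Library 1, with the smallest of these, carried the marks of Pold2 and Skp2, whose levels were 78.2% and 79.6% of the control. At an unadjusted Cuffdiff p under 0.05, the authors' deposited table for library 1 had 8 of 45 genes lower, which were Gmnn, Cdt1, Pold1, Pold2, Pole, Pcna, Rpa1 and Skp2. That is 17.8%, against 7.76% of all features with a usable test and 11.2% of those with at least 10 FPKM in the control. By the same measure the authors' deposited tables had 4 genes lower in library 2 (8.89%, against 5.2% of all features and 4.65% at 10 FPKM or more) and 2 in library 3 (4.44%, against 4.24% and 4.56%). None of the 45 was higher in any of the authors' deposited Cuffdiff tables at that p, against 5.3%, 8.07% and 8.78% of all features. For this direction the share at 10 FPKM or more was not computed, so the comparison is not restricted by level.

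The level of Gmnn left in each library was set beside the other genes. Library 2 kept the most Gmnn, so for each of the 44 other genes its ratio to the control was placed among those of the 3 libraries. It was the highest of the 3 for 17 genes (38.6%), between the others for 14 (31.8%) and the lowest for 13 (29.5%). Over the 11923 other features fitted the shares were 36.7%, 36.5% and 26.8%. The largest difference between these shares was that of the genes lying between, and 3 libraries allow no correlation. Cdt1 was highest in library 2 and lower in libraries 1 and 3, whereas Cul4b and Rpa2 were lowest in library 2. Gins2 lay between its values in libraries 1 and 3 there, and these last 2 had nearly the same Gmnn level.

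By distance between the 3 log2 ratios, the 5 features outside the list most like Gmnn were Gtpbp6, Dear1, C1ql4, Mcart6 and Snord45c, at distances of 1.20 to 1.49 log2 units. Gtpbp6 had 5.72, 5.44 and 1.64 FPKM in libraries 1 to 3 against 11.1 in the control. The other 4 averaged under 5 FPKM in the control. None of the 11923 features therefore came within 1 log2 unit of Gmnn by this distance.

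Other genes of the same pathway, 63 measured from a list by role, gave 0 calls by the study's rule, against 2.88% of features in either direction. The 63 genes cover the origin recognition complex, further firing, fork and checkpoint factors, turnover of Geminin and Cdt1, nucleotide supply and the E2F family. Of the 63, 61 had a usable test in every table. Of these 61, 17 were lower than the control in all libraries and 12 higher. Over all features fitted, 22.9% were lower in all 3 libraries and 22.7% higher. At 10 FPKM or more in the control, the shares were 25.4% and 19.5%. The 61 genes had medians of 0.01, -0.03 and -0.04 log2 units in libraries 1 to 3. On the log2(FPKM + 1) scale, the highest mean ratio was that of Hus1, a subunit of the checkpoint clamp, with 11.7, 12.5 and 12.9 FPKM against 9.41. The lowest was that of Recql4, a helicase needed for firing, with 7.96, 4.97 and 5.02 against 8.50. A mark in a single table was present for 2 genes, named here after their values were seen. Ccne2, a cyclin partner of Cdk2, had 11.8, 26.1 and 11.8 FPKM against 12.9, and the authors' deposited table marked it as higher in library 2. Timeless, the partner of Tipin, had 34.3, 34.0 and 31.4 against 41.1, and the authors' deposited table marked it as lower in library 1.

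Libraries 2 and 3 differed from library 1 in markers of other cell types, as a fact of the whole series that stands beside the values of Gins2 and Cul4b. All 8 neural precursor markers were detected in every library, Sox1, Pax6 and Nes among them, with summed FPKM of 528, 702 and 536 against 541 in the control. Within that sum single markers moved either way. Hes5 was at 43.9%, 193% and 112% of the control in libraries 1 to 3, and the authors' deposited table marked it as lower in library 1. Sox1 was at 99.7%, 66.3% and 76.2%, and Sox2 at 104%, 150% and 114%. Neuronal markers (10 genes, none listed at 0) summed to 158, 613 and 306 FPKM against 148, and 7 of them rose by the study's rule. Stmn2, the neuronal marker with the highest control level, went the other way in libraries 2 and 3. It had 75.4, 44.6 and 40.5 FPKM in libraries 1 to 3 against 66.9, and the authors' deposited table marked it as lower in library 3 (q-value 0.0425). Pluripotency markers (9 genes, none at 0) summed to 74.0, 324 and 529 against 53.9, and 7 of them rose. Epithelial markers (8 genes, none at 0) summed to 522, 59.9 and 169 against 469, and all 8 fell. Feeder fibroblast markers (9 genes, with Lum listed at 0 in the control and in library 3) summed to 28.9, 44.9 and 71.3 against 25.4, and 2 rose. The part of these in the values of Gins2 and Cul4b was not tested. Markers of cycling cells (10 genes, Mki67 and Plk1 among them) summed to 1083, 1072 and 1088 FPKM against 1043, with 0 called. That sum was within 5% of the control in each library, whereas single markers moved either way. In libraries 2 and 3, Mki67 stood at 86.0% and 85.7% of the control and Plk1 at 79.6% and 90.7%. Top2a stood at 119% and 117% there, and Ccnb1 at 113% and 121%.

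**Figure D5:**
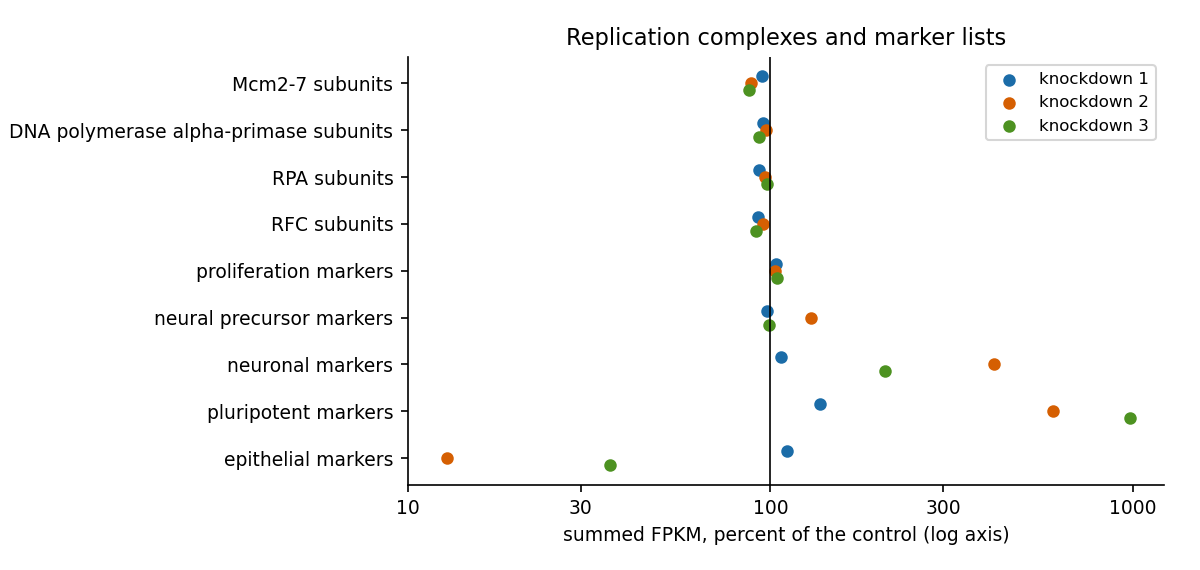
Summed FPKM of 4 replication complexes (Mcm2-7, DNA polymerase alpha-primase, RPA and RFC; GINS and Dbf4-Cdc7 are not drawn) and of 5 marker lists in each knockdown library, as a percentage of the control on a log axis, with the line at 100. The sums of the complexes drawn and of the proliferation markers sit between 87.5% and 104% of the control. In libraries 2 and 3 the sums of neuronal and pluripotency markers are higher and that of epithelial markers is lower. Single markers can differ from their sum, as the neuronal marker Stmn2 does.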

How the data were processed

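RNA-seq of 3 Geminin knockdown libraries and 1 control was used. Per the submitters' processing notes, TopHat, Cufflinks and Cuffdiff were applied with mm9; the sources used here give no versions, annotation or strand setting. The authors deposited 1 table per knockdown library against the same control, with FPKM for both. The deposited p-value is Cuffdiff's, which compares 1 library with 1 library; the deposited q-value exceeds 1 in places and, like the deposited natural log of control over knockdown, was treated as a score. The sign of that log matched the column order. Both deposited lists of marked features only were left out.

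Counts are not given, so depth is unknown in absolute terms. Features too low for a test differ in steps of whole reads, and the most common ratio gave depths of 1.00, 1.15 and 0.972 relative to the control in libraries 1, 2 and 3. Control values of the 45 genes were equal within 0.1% between tables for 93.3% and differed by at most 1.26%, so ratios were formed within a table.

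limma 3.58.1 in R 4.3.3 was fitted with a trended prior to log2(FPKM + 1), each knockdown value on the control scale of its own table, with Benjamini-Hochberg adjustment over 11968 features (usable test in all 3 tables, mean FPKM of at least 1). Log2 ratios use that pseudocount and understate changes of low genes. The fit was tested on simulated data. Values in every library are given for Gmnn, Cdt1, Cdc6, Dbf4, Cdc7, the Mcm2-7 and GINS subunits, any gene marked in a table, and the most abundant, highest and lowest gene of each role; for the further pathway genes, any called gene or else the highest and the lowest. Values of other members are described in addition. The members and lists were chosen with earlier results of these data known. Alternatives were another pseudocount, other level filters, median centring, an untrended prior, other mark rules and leaving out each library.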

Additional observations from a re-analysis of the deposited data

How the results depend on the processing

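The count of 2 genes that fell by the study's rule, Gmnn and Gins2, was 5 when a mark in 1 table was enough (adding Pold2, Skp2 and Cul4b), 0 when all 3 tables had to carry a mark, and 2 at a q-value under 0.01. With a knockdown library left out, so that both remaining tables had to carry a mark, it ranged from 0 to 1: Gins2 without library 1, Gmnn without library 2, and neither without library 3. The count that rose was 0 under each of these settings. The count by limma stayed at 0 under all 8 alternatives, with a lowest adjusted p over the 45 genes of 0.166 (without library 2), and 1 gene or fewer at an unadjusted p under 0.05. The mean of the 3 library medians of the log2 ratio was -0.07, and it ranged from -0.08 to -0.06 over the alternatives. The Gmnn level left ranged from 24.4% (without library 2) to 41.6% (without library 1). Of 27 named genes, Cdt1 and Pold2 changed sign, each without library 1: with a library left out, Cdt1 ranged from -0.11 to 0.037 log2 units and Pold2 from -0.21 to 3.8e-05. Over all features fitted, limma called 15, and 4 to 14 under other settings and 6 (without library 3) to 28 (without library 1) with a library left out. The order of libraries by Gmnn left, under alternatives chosen after seeing the data, gave 17 genes highest in library 2 with a pseudocount of 0.1 and 14 with median centring. No paired analysis was possible because the 2 groups share only the replicate number 1. The single control and unknown absolute depth limit every comparison.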
